A study of Mus musculus with 4 samples.

Results

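DNA methylation was described here over 10 genes of the tumour necrosis factor (TNF) superfamily on mouse chromosomes 1 and 4. They comprised 4 ligand genes (Fasl, Tnfsf4, Tnfsf18 and Tnfsf8) and 6 receptor genes (Tnfrsf4, Tnfrsf18, Tnfrsf9, Tnfrsf8, Tnfrsf1b and Tnfrsf25). The genes were chosen by family and chromosome, and a locus was taken as the annotated span of the gene plus 1000 bp to either side. They were 10 of 9572 protein-coding loci within the range of the table, and 183 of its 1048575 windows of 100 bp overlapped them. Coordinates are those of mm10. The DNA came from natural killer T (NKT) cells of the thymus of C57BL/6 mice, sorted by binding of a CD1 tetramer. NKT cells are innate-like T lymphocytes whose receptor sees lipid antigens. One group came from mice named PLZFon and the other from wild-type (WT) mice. PLZF, a zinc finger transcription factor, is needed for the effector program of NKT cells, and by its title the study asked about PLZF acetylation and their differentiation. The labels describe neither the PLZFon allele nor the age or number of the mice. Each genotype had 1 library of DNA pulled down with an antibody against 5-methylcytosine (MeDIP) and 1 library of DNA that was not pulled down (input). A group thus had no replicate, genotype could not be tested, and every difference below is one between 2 libraries.

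TNF superfamily ligands are mostly trimeric membrane proteins that bind receptors on neighbouring cells. Fas ligand on cytotoxic lymphocytes engages Fas, whose death domain recruits FADD and caspase 8 and starts apoptosis. Receptors without a death domain, such as OX40, GITR and TNFR2, recruit TRAF adaptors instead, activate NF-kappaB and act as costimulators of activated T cells. In mammalian genomes most DNA methylation lies on the CpG dinucleotide. Gene bodies are commonly methylated, while the CpG-rich promoters of genes in use are commonly not.

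The libraries held about 10633608 reads (PLZFon MeDIP), 15141447 (WT MeDIP), 50374575 (PLZFon input) and 60683020 (WT input). Only windows with a CpG and a MeDIP sum over both genotypes of at least 10 reads were listed in the table, so an unlisted window is one below that level or without a CpG, and it may still hold reads. Over all listed windows the MeDIP level, as reads per window scaled to the library total, was 4.22 times the input in PLZFon and 4.44 times in WT. Listing by MeDIP reads can raise these values. The libraries are named here by their titles, since an antibody label goes against them, with none given for PLZFon MeDIP and anti-5-methylcytosine given for the WT input. The PLZFon over WT ratio of MeDIP reads over all listed windows was 0.964, and that of the inputs 1.01. The sorted cell type was not checked here against marker transcripts, since only DNA was measured. Loci from lists of B cell, myeloid, NK cell and other thymocyte genes were compared. A ratio of MeDIP reads does not measure which cells were sorted. The 2-fold rule below called 0 of 5 B cell, 0 of 2 myeloid and 0 of 5 thymocyte loci with at least 20 reads. Klrb1b, the 1 of 5 NK cell loci with that many reads, passed with a ratio of 2.12 (1.14 to 4.01). Of all loci the rule called 0.0913% higher and 0.352% lower. With no minimum size asked, the B cell locus Pax5 was lower, at 0.848 (0.757 to 0.95), beside 5.01% of all loci. Median log2 ratios were -0.27 for B cell, 0.02 for myeloid and -0.0007 for thymocyte loci, beside -0.06 for all loci. The part of other cells in the results below was not tested.

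The promoters of these genes, taken as 250 bases before to 50 after an annotated start, were all but missing from the table. RefSeq sequences (GRCm38.p6) were at hand for 11 promoters of 9 genes, all but Tnfsf4. They held 4 to 15 CpGs, with a median of 7, the same as the median of all 15055 promoters in range. Of the 11 promoters, 10 overlapped no listed window, beside 84.3% of all promoters. The exception was the first start of Tnfrsf9, where the promoter overlapped 1 listed window, centred 205 bp upstream of the start. The sequences of 4 promoters are given 5′ to 3′ with each CpG in capitals. They show the gene with the highest ratio (Fasl), the gene with no listed window at all (Tnfsf18), the promoter that touches a listed window (Tnfrsf9, first start) and a promoter of the highest CpG number (Tnfrsf8).
Fasl promoter, chr1:161788446-161788745, minus strand: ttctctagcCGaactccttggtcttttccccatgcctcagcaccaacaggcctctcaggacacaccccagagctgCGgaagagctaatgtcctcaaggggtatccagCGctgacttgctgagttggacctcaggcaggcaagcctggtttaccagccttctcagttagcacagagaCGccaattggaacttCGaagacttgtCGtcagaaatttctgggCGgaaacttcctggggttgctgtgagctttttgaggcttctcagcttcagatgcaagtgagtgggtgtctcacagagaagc
Tnfsf18 promoter, chr1:161494407-161494706, plus strand: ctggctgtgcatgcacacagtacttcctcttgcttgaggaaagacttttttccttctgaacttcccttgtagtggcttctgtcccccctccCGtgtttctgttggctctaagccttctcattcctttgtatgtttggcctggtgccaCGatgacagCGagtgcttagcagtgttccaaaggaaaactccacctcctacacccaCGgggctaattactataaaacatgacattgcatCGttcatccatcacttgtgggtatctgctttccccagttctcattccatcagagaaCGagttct
Tnfrsf9 promoter, chr4:150919905-150920204, plus strand: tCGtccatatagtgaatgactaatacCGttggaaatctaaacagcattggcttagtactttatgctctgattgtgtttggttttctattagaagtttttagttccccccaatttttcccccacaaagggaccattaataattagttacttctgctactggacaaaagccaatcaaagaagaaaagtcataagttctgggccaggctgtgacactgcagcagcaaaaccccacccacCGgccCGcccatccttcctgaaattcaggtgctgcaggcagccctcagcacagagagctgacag
Tnfrsf8 promoter, chr4:145315115-145315414, minus strand: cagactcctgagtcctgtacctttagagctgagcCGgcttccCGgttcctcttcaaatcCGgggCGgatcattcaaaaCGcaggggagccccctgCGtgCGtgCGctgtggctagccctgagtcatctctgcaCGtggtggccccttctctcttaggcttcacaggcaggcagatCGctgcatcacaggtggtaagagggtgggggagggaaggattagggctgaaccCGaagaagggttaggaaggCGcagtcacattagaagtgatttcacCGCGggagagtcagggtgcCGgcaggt

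The Fasl promoter held 7 CpGs, a number reached by 51.2% of all promoters (counting CG on the strand shown, which reads the same on the other strand). The Tnfsf18 promoter held 6, the first Tnfrsf9 promoter 4 and the Tnfrsf8 promoter 15, the last a number reached by 34.1% of all promoters. The second promoter of Tnfrsf25 also held 15, and those of Tnfrsf1b and Tnfsf8 held 13 and 9. Of the 22 windows that lay wholly within a promoter of these genes, 20 had at least 1 CpG, and 0 of the 20 were listed. Over all promoters 11.3% of such windows with a CpG were listed. The share listed varied with CpG number. It was 14.2% at 1 CpG and 22.9% at 3 CpGs, and it fell to 0.361% at 10 or more.

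**Figure D1:**
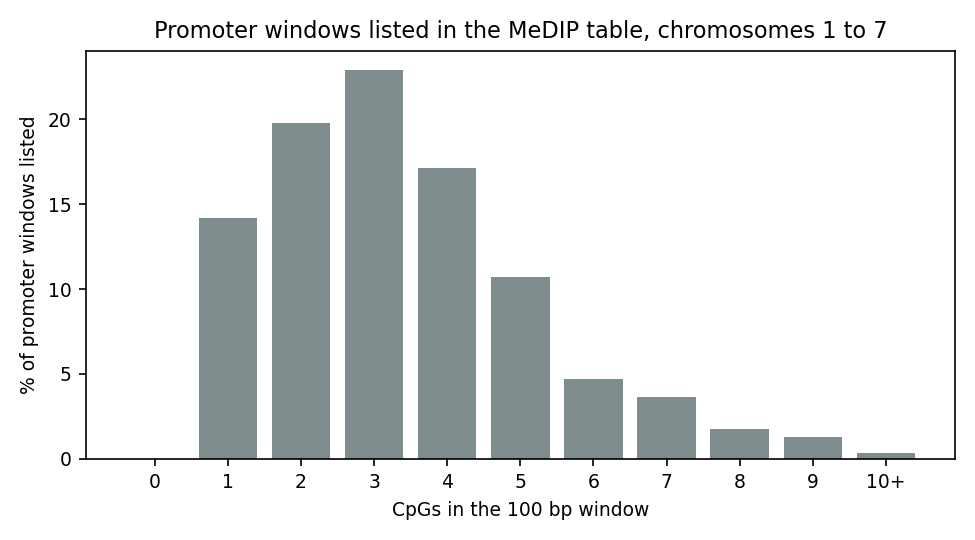
Share of all 100 bp promoter windows that were listed in the MeDIP table (y axis, %) by the number of CpGs in the window (x axis), over promoters of chromosomes 1 to 7. The share is highest at 3 CpGs (22.9%) and lowest at 10 or more (0.361%) among windows with a CpG, and none of the 20 CpG-holding promoter windows of the TNF superfamily genes was listed.

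Away from the start the genes differed widely in how much of the locus was listed. Tnfrsf4, which encodes OX40, had the highest share, with 17 of 52 windows (32.7%), above 95.2% of protein-coding loci. Tnfrsf18 (GITR) had 8 of 46, Tnfrsf9 (CD137) 41 of 281, Tnfrsf25 (death receptor 3) 9 of 67, Tnfrsf8 (CD30) 43 of 501 and Tnfrsf1b (TNFR2) 27 of 366. Of the ligands, Tnfsf4 (OX40 ligand) had 20 of 249 (8.03%), between the shares of Tnfrsf8 (8.58%) and Tnfrsf1b (7.38%), and Fasl had 6 of 99 and Tnfsf8 (CD30 ligand) 12 of 324. Tnfsf18, the GITR ligand (chromosome 1, 161494657 to 161505290), had 0 of 127, so it has no value in any library here. Of 6054 protein-coding loci at least as long, 125 (2.06%) had no listed window. The median locus had 12.2% of its windows listed. The nearest listed window lay 2607 bp upstream of the Tnfsf18 start, with 5 PLZFon MeDIP and 5 WT MeDIP reads and with 8 PLZFon input and 7 WT input reads.

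Fasl, the gene of Fas ligand (chromosome 1, 161780691 to 161788495, minus strand), was the 1 locus of these genes with a higher raw MeDIP count in PLZFon than in WT. Its 6 listed windows had summed counts of 53 in PLZFon MeDIP and 27 in WT MeDIP, and of 39 in PLZFon input and 52 in WT input. The MeDIP libraries were apart, while the inputs were close once scaled to depth. A read of these libraries was taken to count in about 4 windows, which gives 13.25 PLZFon and 6.75 WT MeDIP reads. Each Fasl block held only 3 listed windows, so this division understates its reads and widens the interval. The PLZFon over WT ratio of read shares was 2.8, with a Clopper-Pearson 95% interval of 1.03 to 8.4 that covers counting error only. Divided sums are not whole reads, so such an interval is approximate and depends on the divisor. The input ratio was 0.903 (0.351 to 2.24). With only the most read window of each block, Fasl had 28 MeDIP reads and a ratio of 3.01 (1.3 to 7.54). That setting was added after seeing the data. Within each Fasl block the WT MeDIP counts were equal, so the choice fell on the highest PLZFon count, which raises the ratio.

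The listed windows of Fasl formed 2 blocks within the gene, both downstream of its unlisted promoter. In the nearer block (161785701 to 161786000), 2495 bp past the start, the 3 windows had 7, 9 and 9 PLZFon MeDIP reads against 3, 3 and 3 WT MeDIP reads. In these windows the inputs had 4, 6 and 6 PLZFon reads against 5, 8 and 10 WT reads. In the farther block (161784401 to 161784700), 3795 bp past the start, they had 10, 10 and 8 PLZFon MeDIP reads against 6, 6 and 6 WT MeDIP reads. The PLZFon input had 8, 8 and 7 reads there, and the WT input 8, 10 and 11. In all 6 windows the raw PLZFon MeDIP count was above the WT one, although the WT library was 1.42 times as deep. The block ratios were 3.96 (0.761 to 33.7) and 2.21 (0.586 to 9.48), so neither block alone had an interval excluding equality. Each block held 5 CpGs. Windows of a block share reads and are not separate observations.

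Relative to input, Fasl had the highest level of these genes in PLZFon, 6.44 times (2.61 to 16.5), and the lowest in WT, 2.08 times (0.69 to 5.67). With flanks of 5000 bp Fasl had 5.77 in PLZFon and 4.16 in WT, and was no longer the lowest in WT. All protein-coding loci that reached 20 reads had medians of 3.97 in PLZFon and 4.18 in WT. By a 2-fold rule (20 or more MeDIP reads in sum, a ratio of at least 2 either way and an interval excluding equality) 1 of the 9 measured genes, Fasl, was higher in PLZFon and 0 were lower. Over 7668 protein-coding loci the rule called 0.0913% higher and 0.352% lower. With sums divided by 4, Fasl stood exactly at the bound of 20 reads. Windows are listed, and the bound is met, on the sum of both MeDIP libraries, and WT gave 6.75 of these reads and 3 in each window of the nearer block. Fasl thus passed through the reads of PLZFon, where it is high, so the filters bear on its ratio and the call is a description. Its call ended when the flanks were widened to 5000 bp, with a ratio of 1.28 (0.702 to 2.31), and when only every 4th window was used, with 2.37 (0.781 to 7.95) on 16 reads. The latter setting left only the Fasl window 161784401 to 161784500, which is below the bound of 20 reads. The call also ended when a read was taken to count in 5 windows, with an interval of 0.908 to 9.84, or in 6, with 0.808 to 11.4. Each Fasl block held only 3 listed windows, so the divisors of 5 and 6 cannot decide whether the call holds. The members had been chosen with this result known.

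**Figure D2:**
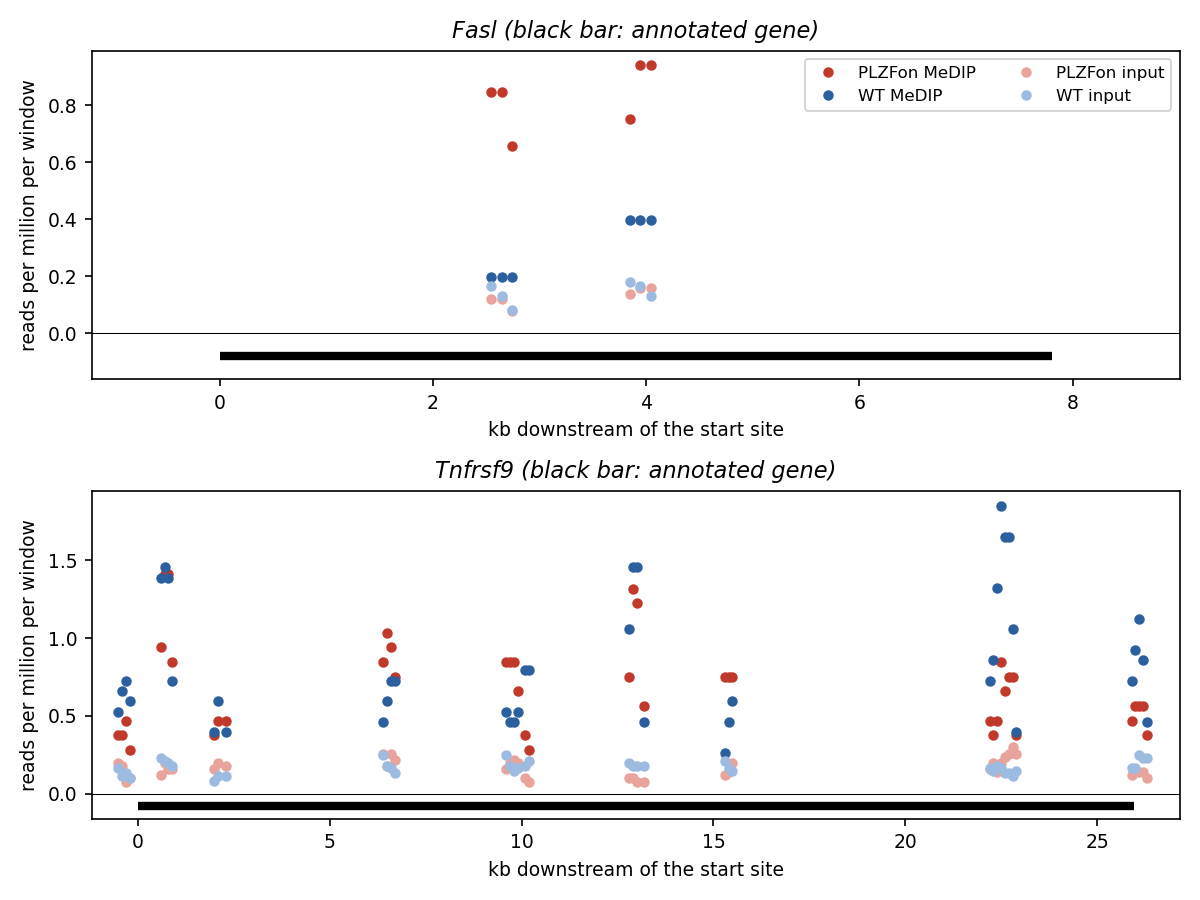
RPM (reads scaled to the library total) per listed 100 bp window (y axis) against distance downstream of the start site in kb (x axis) along Fasl (top) and Tnfrsf9 (bottom, from its first start), for PLZFon MeDIP, WT MeDIP, PLZFon input and WT input. All 6 Fasl windows lie higher in PLZFon MeDIP than in WT MeDIP, while along Tnfrsf9 WT MeDIP is higher in the block 22146 bp past the start.

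The 3 other loci, of those reaching 20 reads, whose pair of MeDIP over input levels was nearest to that of Fasl were Cfhr2, Spata46 and Olfr557. This likeness is a description over 4 libraries. Cfhr2 had levels of 6.38 times input in PLZFon and 2.22 in WT. Its MeDIP ratio was 1.2 (0.586 to 2.45), and its input ratio was 0.419. Spata46 had 6.87 in PLZFon and 2.35 in WT, with a MeDIP ratio of 1.76 (0.758 to 4.16). Olfr557 had 5.68 in PLZFon and 2.35 in WT, with a MeDIP ratio of 1.88 (0.772 to 4.71). Their MeDIP intervals all include equality.

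The intervals of the other measured ligands included equality. Tnfsf4, whose product binds OX40 (chromosome 1, 161395438 to 161418206), had summed counts of 135 in PLZFon MeDIP and 207 in WT MeDIP, and 149 and 164 in the PLZFon and WT inputs. Its ratio was 0.929 (0.583 to 1.46), and the input ratio 1.09. The window of Tnfsf4 with the most MeDIP reads (161411501 to 161411600) held 6 CpGs and had 16 PLZFon and 19 WT MeDIP reads, with 5 and 9 input reads. Tnfsf8, whose product binds CD30 (chromosome 4, 63831202 to 63861508, minus strand), had 92 PLZFon and 110 WT MeDIP counts, and 112 PLZFon and 126 WT input counts. Its ratio was 1.19 (0.654 to 2.15), and 1.83 (0.86 to 3.98) with every 4th window. The listed window nearest to the Tnfsf8 start, 3866 bp upstream, had 3 PLZFon and 8 WT MeDIP reads. Within Tnfsf8 the blocks did not point one way. The block with 9 CpGs (63844601 to 63844800), which holds its most read window with 7 PLZFon and 19 WT MeDIP reads, had 14 PLZFon and 38 WT MeDIP counts, a ratio of 0.525 (0.107 to 1.94). The block at 63848701 to 63849100 had 41 PLZFon and 25 WT MeDIP counts, a ratio of 2.34 (0.784 to 7.62), with an input ratio of 1.69. Both intervals include equality.

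**Figure D3:**
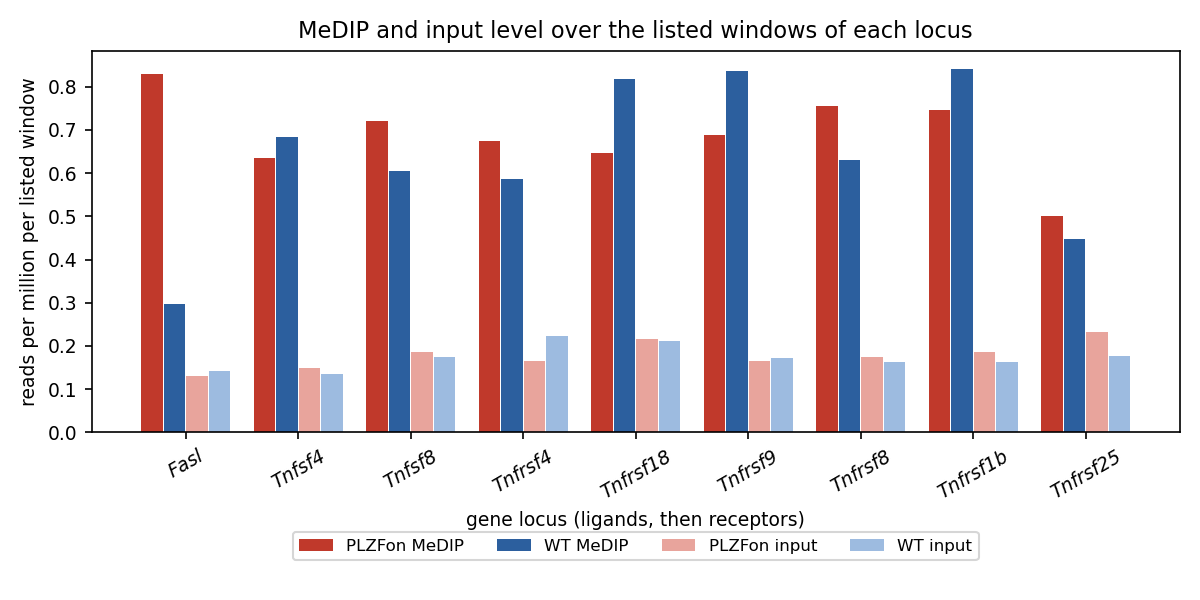
Mean RPM per listed 100 bp window (y axis) over each TNF superfamily locus with listed windows (x axis), as bars for PLZFon MeDIP, WT MeDIP, PLZFon input and WT input, 1 library each and so with no error bar. MeDIP bars exceed input bars at every locus, and Fasl has 0.831 in PLZFon MeDIP and 0.297 in WT MeDIP.

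Tnfrsf9 encodes CD137, a costimulatory receptor of activated T cells and NK cells (chromosome 4, 150920155 to 150946104, plus strand), and it had the most MeDIP reads of the 10 genes. Its 41 windows had 300 PLZFon and 519 WT MeDIP counts, and 343 PLZFon and 425 WT input counts. Its MeDIP ratio stood at 0.823 (0.611 to 1.1), beside 0.972 (0.723 to 1.3) for input. The Tnfrsf9 windows fell into 9 blocks. One of them, 22146 bp past the first start and 3004 bp before the gene end (150942301 to 150943100), stood apart. It held 25 CpGs in 8 windows and had 50 PLZFon and 144 WT MeDIP counts, a ratio of 0.494 (0.238 to 0.963). The interval included equality when a read was taken to count in 5 windows (0.215 to 1.04) or 6 (0.196 to 1.12). In the inputs of that block PLZFon had 88 counts and WT 72, a ratio of 1.47 (0.754 to 2.91), which is on the other side of equality. Its most covered window (150942601 to 150942700) had 9 PLZFon and 28 WT MeDIP reads, and 10 input reads in each genotype.

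This was the 1 block of 15 with at least 20 reads over these genes whose interval excluded equality, on the lower side, and 0 were higher. Over 79826 such blocks in all, 2.14% were lower and 1.05% higher. A block was a run of listed windows starting no more than 400 bp apart, and blocks were defined after the data had been seen. By the 2-fold rule applied to single windows with at least 20 reads, 3 of 62 windows were lower and 0 higher, beside 2.17% and 1.13% of 409114 windows. All 3 lay next to each other in that Tnfrsf9 block and share reads. They had 5, 9 and 7 PLZFon MeDIP reads against 20, 28 and 25 WT MeDIP reads, with 7, 10 and 12 PLZFon input reads against 11, 10 and 8 WT input reads.

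Near its first start Tnfrsf9 had listed windows on both sides. Within 1000 bp of the start, 8 windows had 65 PLZFon and 113 WT MeDIP counts, a ratio of 0.819 (0.416 to 1.56). The block upstream of the start (150919601 to 150920000) had 16 PLZFon and 38 WT MeDIP counts. The block downstream (150920701 to 150921100) had 49 and 75, and its most read window (150920801 to 150920900, 4 CpGs), which ties with 150942601 to 150942700 for the whole gene, was at 15 PLZFon and 22 WT MeDIP reads, with 10 and 13 input reads. The ratio of the downstream block was 0.93 (0.414 to 2.02).

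Tnfrsf8 and Tnfrsf1b are neighbours on the minus strand of chromosome 4, 20.261 kb apart, and encode CD30 and TNFR2, the TNF receptor without a death domain. Tnfrsf8 (145267132 to 145315164) had 346 PLZFon and 411 WT MeDIP counts, and 377 PLZFon and 424 WT input counts. Its ratio was 1.2 (0.89 to 1.61), and the input ratio 1.07. Listed windows flanked its CpG-rich promoter on either side. The block just inside the gene (145314601 to 145314900) had 27 PLZFon and 19 WT MeDIP counts, and the block upstream (145315501 to 145316200) had 35 and 49. Within 1000 bp of the start the ratio was 1.3 (0.609 to 2.75). The longest block of Tnfrsf8 (145298801 to 145299800) had 85 PLZFon and 65 WT MeDIP counts, a ratio of 1.86 (0.931 to 3.8), with an input ratio of 1.57 (0.852 to 2.92). Both intervals include equality. The most read window of Tnfrsf8 (145288801 to 145288900) had 12 PLZFon and 25 WT MeDIP reads, and the one nearest to its start, 314 bp downstream, had 8 and 5.

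Tnfrsf1b (145212368 to 145246870) had 214 PLZFon and 344 WT MeDIP counts, and 252 PLZFon and 267 WT input counts. Its MeDIP ratio was 0.886 (0.618 to 1.26) and its input ratio 1.14 (0.793 to 1.63). The window of Tnfrsf1b with the most reads (145219201 to 145219300) had 14 PLZFon and 25 WT MeDIP reads, with 13 and 6 input reads. The lowest block ratio in Tnfrsf1b was 0.422, at 145227301 to 145227600, with 16 PLZFon and 54 WT MeDIP counts, but its interval (0.101 to 1.35) includes equality. No listed window lay within 1000 bp of the Tnfrsf1b start, and the nearest was 1280 bp upstream with 7 PLZFon and 12 WT MeDIP reads. The 27 listed windows between both genes had 239 PLZFon and 289 WT MeDIP counts, a ratio of 1.18 (0.822 to 1.68).

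Tnfrsf4 and Tnfrsf18, which encode the costimulatory receptors OX40 and GITR, lie 9.708 kb apart on the plus strand of chromosome 4. Tnfrsf4 (156013595 to 156016613) had 122 PLZFon and 151 WT MeDIP counts, and 142 PLZFon and 230 WT input counts. Its MeDIP ratio was 1.15 (0.69 to 1.9) and its input ratio 0.744 (0.475 to 1.15), the lowest input ratio of the 9 genes. The nearest listed window of Tnfrsf4 was 255 bp past the start site of its RefSeq promoter (156013695) and had 6 PLZFon and 9 WT MeDIP reads. The most read one (156017301 to 156017400), beyond the gene end, had 14 and 15, with 10 PLZFon and 16 WT input reads. The flanks of Tnfrsf4 overlap the end of the neighbouring gene Sdf4, upstream of these windows.

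Tnfrsf18 (156026322 to 156028894) had 55 PLZFon and 99 WT MeDIP counts, and 87 PLZFon and 102 WT input counts, in 1 block of 8 windows. Its ratio was 0.791 (0.378 to 1.59). The most read window of Tnfrsf18 (156028401 to 156028500) had 10 PLZFon and 18 WT MeDIP reads. The listed window nearest to its start, 1572 bp upstream and so outside the locus, had 7 and 3. The 8 windows of the locus also lie in the long noncoding RNA gene Gm16008. Tnfrsf25, which encodes death receptor 3, the receptor of the ligand TL1A (chromosome 4, 152115528 to 152120119, plus strand), had 48 PLZFon and 61 WT MeDIP counts, and 105 PLZFon and 96 WT input counts. Its ratio was 1.12 (0.48 to 2.55), and its input ratio was 1.32 (0.728 to 2.39). The most read window of Tnfrsf25 (152117901 to 152118000) had 9 PLZFon and 6 WT MeDIP reads, and the one nearest to a start, 1507 bp downstream, had 5 and 5. Neither Tnfrsf18 nor Tnfrsf25 had a listed window within 1000 bp of a start. The gene table used here gives no exons, so windows are not assigned to exons, introns or UTRs.

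**Figure D4:**
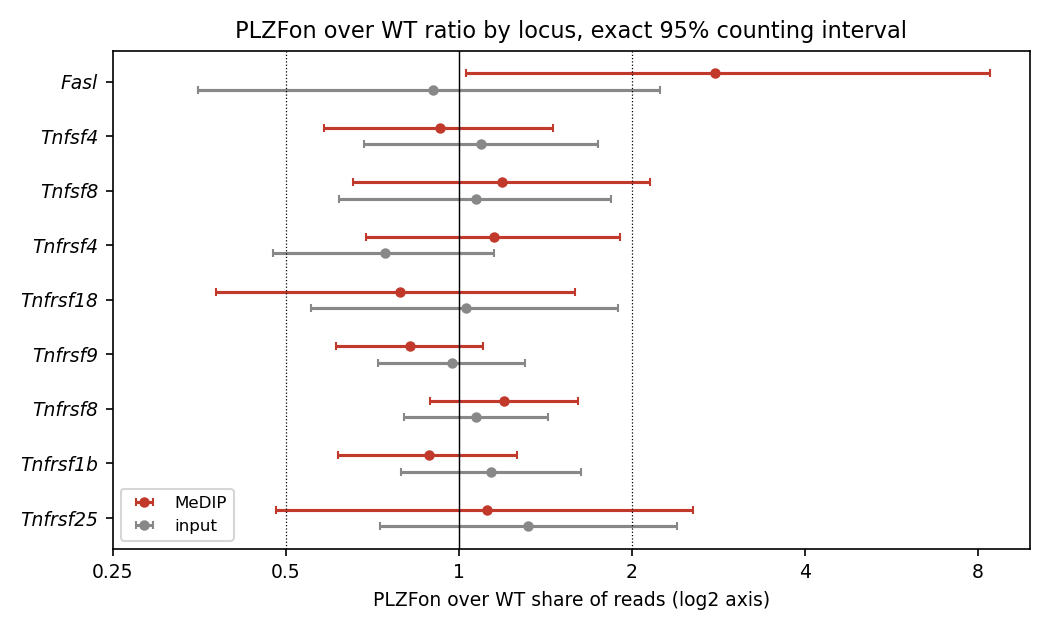
PLZFon over WT ratio of read shares (x axis, log2 scale) for MeDIP and input at each TNF superfamily locus with listed windows. Bars are approximate Clopper-Pearson 95% counting intervals of the divided sums, with equality as a solid line and 2-fold as dotted lines. Fasl is the MeDIP ratio whose interval (1.03 to 8.4) excludes equality, taking a read to count in 4 windows, and all input intervals include it.

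Across the 9 measured genes 5 ratios lay above equality and 4 below. The median was 1.12, a log2 value of 0.16, beside a median log2 ratio of -0.06 over all 7668 loci, of which 37.1% lay above equality. With no minimum size asked, 1 gene (Fasl) had an interval above equality and 0 below, where 1.24% of all loci were above and 5.01% below. Among the 183 windows, 92 were higher in PLZFon MeDIP after scaling to depth and 91 higher in WT. Ranked by ratio among the 7668 loci, Fasl stood above 99.97%, Tnfrsf8 above 90.9%, Tnfsf8 above 90.5% and Tnfrsf18, the lowest of these genes, above 11.9%. Fasl was at the read bound of this ranking and met it through its PLZFon reads, so its rank is a description. The intervals of each gene and of the next gene in the order overlap, and differences between genes were not tested.

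**Figure D5:**
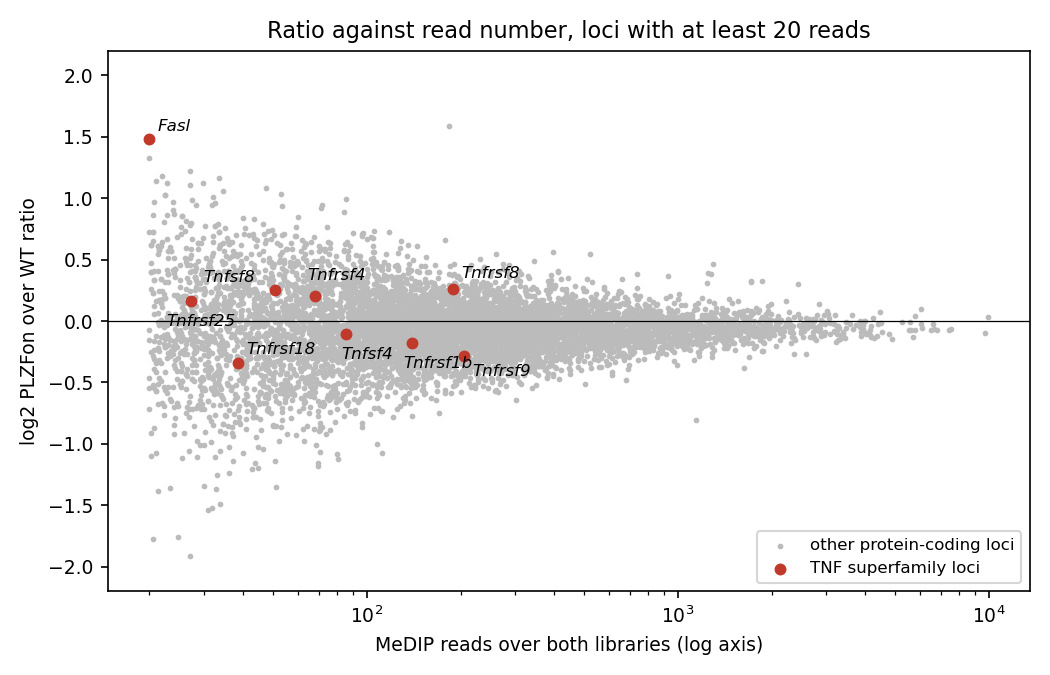
Log2 PLZFon over WT MeDIP ratio (y axis) against MeDIP reads over both libraries (x axis, log scale) for protein-coding loci with at least 20 reads, grey, and the 9 measured TNF superfamily loci, red. Fasl lies at the left edge with 20 reads and 1.48, and the other 8 lie between -0.34 and 0.26.

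Relative to input, the order of the genes differed between the genotypes. In PLZFon it ran from Fasl (6.44) through Tnfrsf8 (4.35), Tnfsf4 (4.29), Tnfrsf9 (4.14), Tnfrsf4 (4.07), Tnfrsf1b (4.02), Tnfsf8 (3.89) and Tnfrsf18 (2.99) to Tnfrsf25 (2.17). In WT it ran from Tnfrsf1b (5.16) through Tnfsf4 (5.06), Tnfrsf9 (4.89), Tnfrsf18 (3.89), Tnfrsf8 (3.88), Tnfsf8 (3.5), Tnfrsf4 (2.63) and Tnfrsf25 (2.55) to Fasl (2.08). Tnfrsf25 had an interval of 0.996 to 4.44 in PLZFon and of 1.25 to 5.04 in WT. The low end of both orders changed with flanks of 5000 bp, where Tnfrsf25 had 3.64 in PLZFon and 3.34 in WT and Tnfrsf18 was lowest with 2.74 in PLZFon and 2.72 in WT. Within each genotype the intervals of adjacent genes overlap. All 183 windows together stood at 4.03 times input in PLZFon and 4.1 in WT, close to the table as a whole (4.22 in PLZFon and 4.44 in WT).

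The windows were also split by CpG number. Windows with 4 or more CpGs, 25 in number, had 193 PLZFon and 367 WT MeDIP counts, a ratio of 0.749 (0.517 to 1.07), with an input ratio of 1.14. Windows with 1 CpG, 55 in number, had 375 PLZFon and 472 WT MeDIP counts, a ratio of 1.13 (0.853 to 1.5), with an input ratio of 0.99. Both intervals include equality. Over all listed windows the ratio was 0.937 at 4 or more CpGs and 0.985 at 1 CpG. Of these 25 windows, 9 are in Tnfrsf9 and 4 of them in the block named above. In WT these 25 windows stood at 6.18 times input against 3.37 for the windows with 1 CpG. In PLZFon the values were 4.06 and 3.85.

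The ligand genes of chromosome 1 share a region in which the sequence between them was also compared. Between Tnfsf4 and Tnfsf18, which lie 76.45 kb apart, 42 windows had 302 PLZFon and 483 WT MeDIP counts, a ratio of 0.89 (0.659 to 1.2). Between Tnfsf18 and Fasl, 275.4 kb apart with no protein-coding gene between them, 247 windows had 2244 PLZFon and 3136 WT MeDIP counts, a ratio of 1.02 (0.913 to 1.14).

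The authors' deposited table, which compared PLZFon with WT MeDIP by edgeR, had 0 of these 183 windows at an adjusted p below 0.05, beside 0.0144% of all listed windows. All 183 had an adjusted p of 1 in the authors' deposited table. At an unadjusted p below 0.05 the authors' deposited table had 3 of the 183, where 3.31% of all windows passed. These were neighbouring windows in Fasl (161785801 to 161785900 and 161785901 to 161786000), each with a log2 fold of 2.1 and p = 0.0386 in the authors' deposited table, and a window of the Tnfrsf9 block (150942701 to 150942800) with a log2 fold of -1.26 and p = 0.0429 there. The p-values were computed from 1 library per genotype.

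Other genes of the pathway were taken from a list of 62, all found in the gene table, of which 19 lay in the range of the MeDIP table and 18 had at least 20 reads. None passed the 2-fold rule in either direction. The median log2 ratio was -0.05, beside -0.06 over all loci. Among the ligands Tnfsf10 (TRAIL) had 1.05 (0.738 to 1.48) and Tnfsf15 (TL1A, the ligand of death receptor 3) 1.03 (0.67 to 1.57). Among the receptors with at least 20 reads, Tnfrsf14, the receptor HVEM, had 1.42 (0.839 to 2.42) and Tnfrsf1a, the TNF receptor with a death domain, 0.749 (0.54 to 1.03). Cd27, like Tnfsf18, had no listed window. Inside the cell, Traf2, an adaptor of TNFR2 and other receptors, had 0.759 (0.574 to 0.998), and its input ratio was 1.01. It was the 1 locus of these 18 with an interval excluding equality. Over all 7668 loci 5.01% had an interval below equality and 1.24% above. The interval of Traf2 was 0.554 to 1.03 when a read was taken to count in 5 windows. Traf5, an adaptor of OX40 and CD30, had 0.863 (0.636 to 1.16). Casp8, the caspase that Fas recruits, had 0.865 (0.746 to 1.003), and Cflar, its inhibitor, 0.957 (0.802 to 1.14).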

How the data were processed

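MeDIP and input DNA of sorted thymic NKT cells, digested at 50 °C for 12 to 18 h and sonicated to a median of 180 to 230 bp per the labels' protocols, was analysed from 1 deposited table. The submitters' processing notes name BWA, edgeR and mm10 without versions, and the alignments were sorted and unique per the file headers. Per the file headers it holds raw counts per 100 bp window and RPKM values for 4 libraries, a relative methylation score and a CpG factor score, and the authors' log2 fold changes (PLZFon over WT, by their sign against the counts) with p-values and adjusted p-values from edgeR. The formula of the score is not given in the sources used here.

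Library totals were recovered from counts and RPKM and used for scaling. In 2642 of 2642 promoter windows compared, the CpG factor equalled the number of CG in the RefSeq sequence (GRCm38.p6, the primary assembly of mm10). Counts of windows became less alike up to 4 windows apart in the inputs (scaled squared difference of 1.14 in PLZFon and 1.15 in WT) and little more at 8 (1.19 and 1.22), so a read was taken to count in about 4 windows and sums were divided by 4 for intervals. In the MeDIP libraries the difference went on growing past 4 windows (PLZFon 4.67 at 4 and 5.54 at 6, WT 6.88 at 4 and 8.33 at 6), so divisors of 5 and 6 were added. Where a read fell in fewer listed windows, as in the Fasl blocks of 3 windows, this understates reads. PCR duplicates and differences between animals are outside the intervals. Named were all 10 genes, their most read window (none for Tnfsf18, which has none listed), the nearest to the start (none for Tnfsf4, whose strand is not in the tables used here) and those passing the rule, all windows of Fasl, and pathway genes that passed or were the 2 most different per role. Casp8, Cflar, Cd27, further blocks and the sequence between genes were named outside that rule, after their values were seen. The members and lists were chosen with earlier results of these data known. No test of genotype was made. The code of the 2-fold rule was checked on simulated reads. Tools were Python 3.11.15, scipy 1.17.1, R 4.3.3 and edgeR 4.0.16 (TMM factors only). Alternatives were other scalings, flanks, divisors, read minimums, sizes and distances from the start, and leaving out windows whose inputs sum to 60 reads or more. The alternatives of 1 window per block and of divisors 5 and 6 were added after seeing the data.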

Additional observations from a re-analysis of the deposited data

How the results depend on the processing

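All 99 recomputed locus ratios of the 9 measured genes lay within the counting interval of the value given above. Many of these ratios could not move. A divisor cancels in a ratio, and no window of these genes was left out for raised input. A flank of 0 bp changed the ratio only of Tnfrsf4, Tnfrsf9 and Tnfrsf8. Fasl ranged from 1.28 with flanks of 5000 bp (the added reads lie outside the gene) to 3.01 with 1 window per block, Tnfsf8 from 1.04 to 1.83 (every 4th window), Tnfrsf9 from 0.807 to 0.859 and Tnfrsf8 from 1.14 to 1.24. Ratios crossed equality for Tnfrsf1b (0.772 to 1.003) and Tnfrsf25 (0.971 to 1.31). The number of genes passing the 2-fold rule, and the number with an interval excluding equality, was 1 and became 0 with a minimum of 50 reads, flanks of 5000 bp, every 4th window, or divisors of 5 or 6. It stayed at 1 under the other scalings, a flank of 0 bp, a divisor of 3 and 1 window per block. The flank of 0 bp kept the same Fasl windows and a divisor of 3 only narrows the interval, so neither could end the call. With 1 window per block, the PLZFon count chose the Fasl windows. The minimum of 50 reads was bound to end the call, as Fasl had 20, and every 4th window left 16. The divisors of 5 and 6 exceed the 3 listed windows of each Fasl block, so they cannot decide whether the call holds. With a minimum of 10 reads 5 windows passed the window rule in place of 3. At an unadjusted p below 0.05 the authors' deposited table had 3 windows in place of 0. The 54 recomputed MeDIP over input levels lay within their counting intervals, but with flanks of 5000 bp Fasl in WT was 4.16 in place of 2.08 and Tnfrsf25 in PLZFon 3.64 in place of 2.17. Here too, leaving out windows of raised input changed no level, and a flank of 0 bp only those of Tnfrsf4, Tnfrsf9 and Tnfrsf8. No window of these genes reached 60 reads over both inputs. No paired analysis was possible because each group has 1 library. Depth limits most of all Fasl, Tnfrsf25 and Tnfrsf18, whose intervals span more than 4-fold.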

Other observations

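The authors' relative methylation score was on average 0.564 in PLZFon MeDIP and 0.609 in WT MeDIP over the 183 windows of these genes, and 0.57 and 0.625 over all listed windows. Among the 77550 listed windows with equal raw counts in both MeDIP libraries, 100% had PLZFon and WT scores within 0.01 of each other, although the WT library was 1.42 times as deep. Fasl was the gene where the mean score was higher in PLZFon (0.645) than in WT (0.558). Scores were alike at equal raw counts, so this rests on the raw Fasl counts given above and is no separate observation.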
